A study of Mus musculus with 6 samples.

Results

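The genes described are 10 components of the adherens junction and the desmosome of epithelial cells: the cadherins Cdh1 and Cdh3, the catenins Ctnna1, Ctnnb1 and Ctnnd1, plakoglobin (Jup), desmoplakin (Dsp), the desmosomal cadherins Dsg2 and Dsc2, and plakophilin 2 (Pkp2). They were taken by symbol from a table of 57127 gene symbols, in which all 10 were found and were abundant enough to be tested. The table holds reads per gene in the whole epididymis of adult C57BL/6 mice. The comparison is of 3 Ocln-KO libraries (genotype Ocln-/-, a knockout of the tight junction gene Ocln, bred from heterozygous pairs) with 3 wild-type (WT) libraries. It asks whether the neighbouring junctions kept their transcript levels when a tight junction component was lost.

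Adherens junctions and desmosomes hold epithelial cells together below the tight junction. In the adherens junction, E-cadherin (Cdh1) or P-cadherin (Cdh3) of adjoining cells bind each other outside the membrane, and inside it bind beta-catenin (Ctnnb1) or plakoglobin (Jup) and p120-catenin (Ctnnd1), with alpha-catenin (Ctnna1) as the link to actin. In the desmosome, desmogleins and desmocollins such as Dsg2 and Dsc2 bind each other across the gap, Jup and plakophilins such as Pkp2 form the plaque, and desmoplakin (Dsp) ties the plaque to keratin filaments. In the epididymis these junctions join principal, clear and basal cells of the epithelium that lines the duct.

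Library totals ran from 30646424 to 38870780 counts, and values are given as CPM, a library's counts scaled to a common size by edgeR's TMM factors. Ocln itself had 85.9, 78.8 and 91.8 CPM in the WT libraries against 15.1, 15.3 and 14.9 CPM in those of Ocln-KO, which is -2.50 as a log2 fold change (standard error, SE, 0.09, edgeR adjusted p = 0.000108, where edgeR stands for its quasi-likelihood test and adjustment is by Benjamini and Hochberg over all genes tested). Ocln-KO replicate 3 stood apart: the first principal component of log2 CPM, with 47.2% of the variance, had WT scores from -52.8 up to -37.0, while replicates 1, 2 and 3 of Ocln-KO scored 17.7, 29.1 and 86.3. Of the 19691 genes tested, 8.95% had an adjusted p under 0.05, 3.91% being higher and 5.04% lower in Ocln-KO. Of these calls 43.7% were higher, which became 63.5% when libraries were scaled by total counts only. The labelled tissue was checked with 8 epididymal genes, whose summed level was between 17535 and 29940 CPM in each library, nearly all of it from Crisp1, Adam7 and Lcn5. Of this list Crisp1 had 12488 to 16769 CPM in WT and 4439 to 9957 CPM in Ocln-KO (edgeR adjusted p = 0.0855), Lcn8 had at most 2.30 CPM, and Spag11b rose from 0.294, 0.527 and 0.135 CPM to 1.09, 144 and 215 CPM (edgeR adjusted p = 0.0314). Lcn9 and Rnase10 of that list had at most 4 and 20 counts in any library. An extraction note in the sample labels names prefrontal cortex. The summed level of 8 genes of the cerebral cortex was between 21.7 and 29.6 CPM, with Neurod6 at no count, Snap25 at no more than 2 counts, and Mbp, a myelin gene also of peripheral nerve, higher in Ocln-KO with an adjusted p under 0.05.

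By position, these genes include pairs of neighbours. Cdh3 (chromosome 8, 106510852 to 106556911, GRCm38.p6) lies 46438 bases before Cdh1 (106603350 to 106670247), and on chromosome 18 Dsc2 (20030633 to 20059554) and Dsg2 (20558074 to 20604526) belong to the cluster of desmosomal cadherins, with Ctnna1 (35118902 to 35254776) elsewhere on that chromosome. Ctnnb1 is on chromosome 9 (120933400 to 120960507), Ctnnd1 on chromosome 2 (84587096 to 84658977), Jup on chromosome 11 (100368856 to 100397839), Dsp on chromosome 13 (38151294 to 38198577) and Pkp2 on chromosome 16 (16213345 to 16272712). Exons of Ctnnb1 overlap 759 bases of the exons of Ulk4 on the other strand, which had 2664 counts in all libraries together against at least 15040 for Ctnnb1 in each. Ctnnd1 shares 4482 exonic bases with Gm28635 on its own strand, an annotated gene not analysed here. How strand was used in counting is not given in the sources used here.

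Per kilobase of annotated exon, the levels in WT spanned about an order of magnitude. Ctnnb1 had 115 ± 8.02 and Cdh1 101 ± 9.07 CPM per kb (SD, n = 3), and their libraries overlapped. Ctnnd1 followed with 50.5 ± 0.539 CPM per kb. Ctnna1, Cdh3 and Dsp had 31.8 ± 1.13, 29.8 ± 4.04 and 28.7 ± 1.31 CPM per kb, with Cdh3 overlapping the other two. Jup had 19.3 ± 1.71, Dsc2 13.5 ± 0.395, Dsg2 12.5 ± 0.376 and Pkp2 9.42 ± 0.770 CPM per kb, each set of libraries lying apart from the next. The beta-catenin to plakophilin order was nearly the same in Ocln-KO, except that Dsp, at 36.3 ± 5.48 CPM per kb, had the fourth highest mean there and Ctnna1 (34.0 ± 3.55) the fifth. These levels carry the limits of the exon annotation and of the counting.

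Of the 10 genes, 1 passed the test, Dsg2, which was lower in Ocln-KO. No gene was higher with an adjusted p under 0.05. A share of 1 in 10 is near the 8.95% of all genes tested. In 7 genes the fold change was below 1 and in 3 above it, with a median log2 fold change of -0.19 against 0.01 for all genes tested. WT and Ocln-KO libraries lay apart, without overlap, in 5 of the 10 genes, against 36.3% of all genes tested. The 95% interval of the log2 fold change stayed within a 2-fold change for each of the 10, and the bound farthest from 0 was -0.74, for Dsc2. Each gene had at least 1443 counts in each library, so that counting error was at most 2.63%, while the spread between libraries (SD over mean) ran from 1.07% to 13.6% in WT and from 4.18% to 26.5% in Ocln-KO. The tissue was sequenced whole, so that fewer cells of a type and less RNA per cell cannot be told apart.

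**Figure D1:**
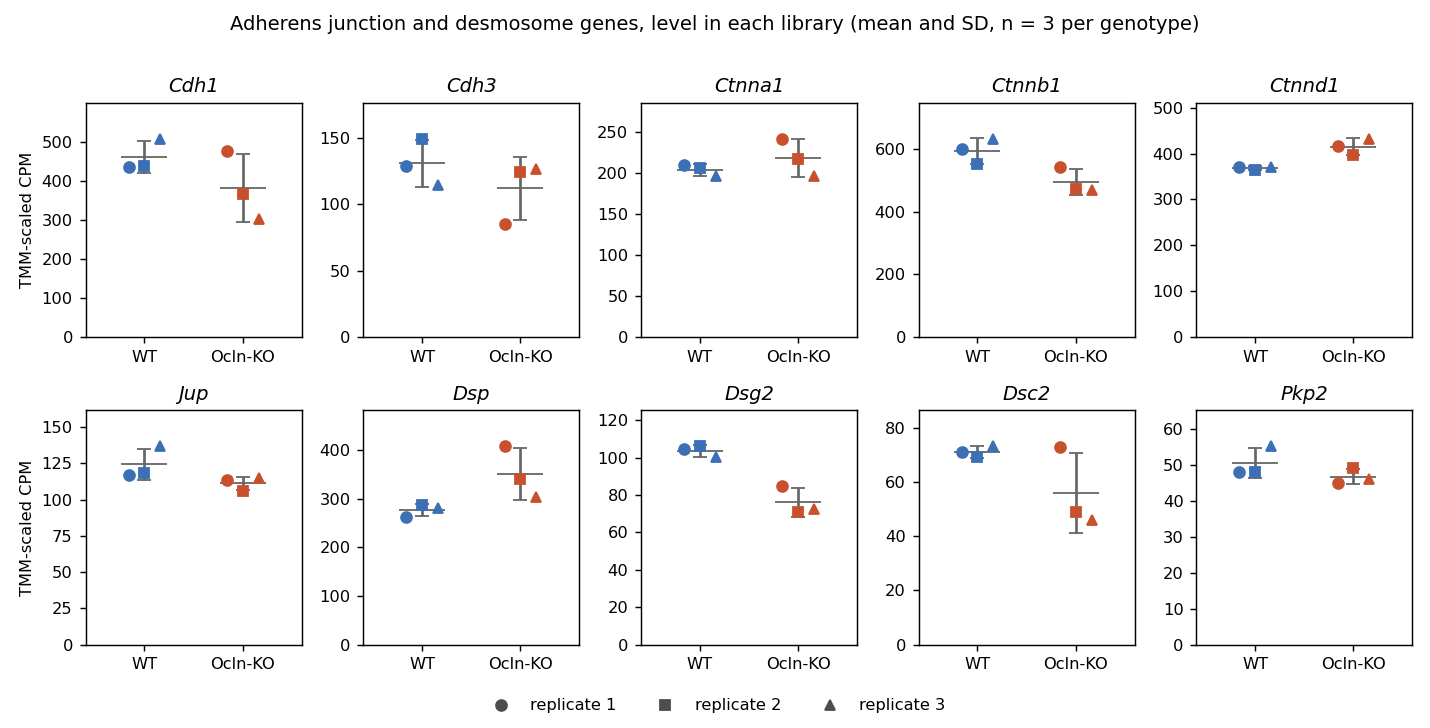
TMM-scaled CPM (vertical axes, from 0) of each of the 10 genes in WT (blue) and Ocln-KO (red), with circles, squares and triangles for replicates 1, 2 and 3 and bars for the mean and SD (n = 3). Dsg2 lay between 100 and 106 CPM in WT and between 71.1 and 85.1 CPM in Ocln-KO, while Dsp was higher in each Ocln-KO library than in any WT library.

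Among the desmosomal cadherins, Dsg2 had 105, 106 and 100 CPM in the WT libraries against 85.1, 71.1 and 72.5 CPM in those of Ocln-KO. Each Ocln-KO library lay below each WT library. The log2 fold change was -0.44 (SE 0.10, edgeR adjusted p = 0.0351), a fall to 0.735 of the WT level with a 95% interval from 0.630 to 0.857. Over 14 alternatives it ran from -0.53 to -0.36, and the adjusted p was under 0.05 in 8 of them. With total counts only it was 0.0664, without WT replicates 1, 2 and 3 it was 0.126, 0.102 and 0.101, and without Ocln-KO replicate 2 it was 0.0927. Without Ocln-KO replicate 3 the call held.

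Dsc2, the desmocollin that pairs with Dsg2 in simple epithelia, had 71.2, 69.2 and 73.4 CPM in the WT libraries against 73.1, 49.0 and 46.0 CPM in those of Ocln-KO. Ocln-KO replicate 1 was within the WT range and the other Ocln-KO libraries were below it. The log2 fold change was -0.35 (SE 0.17, 95% interval -0.74 to 0.05, edgeR adjusted p = 0.219). Without Ocln-KO replicate 1 it was -0.58 with an adjusted p of 0.0220, the lowest of the 14 alternatives, which ran up to 0.445.

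Dsp, the link from the plaque to keratin, went the other way, with 263, 287 and 280 CPM in the WT libraries against 408, 341 and 304 CPM in those of Ocln-KO. The genotypes did not overlap, and Ocln-KO replicate 1 was highest. The log2 fold change was 0.34 (SE 0.12, 95% interval 0.06 to 0.62, unadjusted p = 0.0221 and edgeR adjusted p = 0.110), so that Dsp did not pass over all genes tested. Without Ocln-KO replicate 3 it was 0.43, with an adjusted p of 0.0438. The other 13 alternatives left the adjusted p above 0.05, up to 0.283.

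The plaque proteins of the armadillo family differed less. Jup, shared by both junctions, had 117, 119 and 137 CPM in the WT libraries against 113, 106 and 115 CPM in those of Ocln-KO. Its groups lay apart by little, with a log2 fold change of -0.16 (SE 0.09, 95% interval -0.37 to 0.05, edgeR adjusted p = 0.296). Pkp2 had 48.1, 48.1 and 55.3 CPM in the WT libraries against 44.98, 49.1 and 46.2 CPM in those of Ocln-KO, which overlapped. Its log2 fold change was -0.11 (SE 0.09, 95% interval -0.33 to 0.10, edgeR adjusted p = 0.473).

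In the adherens junction, Cdh1 had 435, 438 and 508 CPM in the WT libraries against 475, 366 and 302 CPM in those of Ocln-KO. Ocln-KO replicate 1 was within the WT range, and Ocln-KO replicate 3 was the lowest of all libraries. The log2 fold change of Cdh1 was -0.27 (95% interval -0.65 to 0.11, edgeR adjusted p = 0.317). Without Ocln-KO replicates 1 and 3 in turn it was -0.46 (adjusted p = 0.0707) and -0.13 (adjusted p = 0.577). The same Ocln-KO libraries differed in the summed levels of markers of other cell types. The summed level of 8 fibroblast genes was 1980, 2732 and 5483 CPM in Ocln-KO replicates 1, 2 and 3 (2512 to 2756 CPM in WT). Most of this sum came from the collagen genes Col1a1, Col1a2 and Col3a1. Pdgfra had 224, 256 and 246 CPM and Dpt 8.26, 8.16 and 4.79 CPM in the same libraries, while Dcn, Lum and Thy1 were highest in replicate 3. The summed level of 10 leukocyte genes was 143, 198 and 256 CPM (112 to 125 CPM in WT). The part of these cells in the level of Cdh1 was not tested.

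Cdh3, which lies beside Cdh1 in the genome, did not follow it. It had 129, 149 and 114 CPM in the WT libraries against 84.8, 124 and 127 CPM in those of Ocln-KO, with replicate 1 the lowest Ocln-KO library, in which Cdh1 was highest. The log2 fold change of Cdh3 was -0.23 (95% interval -0.62 to 0.17, edgeR adjusted p = 0.425).

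Of the catenins, Ctnnb1 had 602, 552 and 634 CPM in the WT libraries against 544, 472 and 469 CPM in those of Ocln-KO, each Ocln-KO library below each WT library. Its log2 fold change of -0.27 (95% interval -0.51 to -0.03, unadjusted p = 0.0332 and edgeR adjusted p = 0.137) did not pass over all genes tested. Ctnnd1, which binds the cadherin tail near the membrane, had 371, 365 and 372 CPM in the WT libraries against 416, 396 and 433 CPM in those of Ocln-KO, without overlap. Its log2 fold change was 0.17 (95% interval -0.02 to 0.36, edgeR adjusted p = 0.221). Ctnna1 differed least of the 10, with 210, 207 and 196 CPM in the WT libraries, 242, 217 and 197 CPM in those of Ocln-KO and a log2 fold change of 0.10 (SE 0.10, 95% interval -0.13 to 0.33, edgeR adjusted p = 0.560). For Cdh1, Cdh3, Ctnna1, Ctnnb1, Ctnnd1, Jup and Pkp2 none of the 14 alternatives gave an adjusted p under 0.05, and for all 10 genes the sign of the fold change was the same in each of them.

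**Figure D2:**
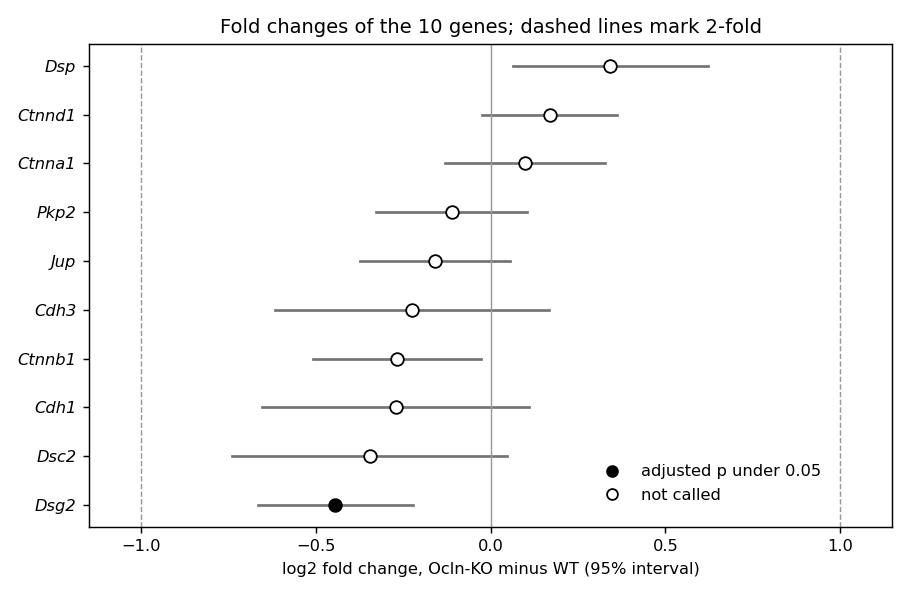
Log2 fold change (Ocln-KO minus WT, horizontal axis) of the 10 genes with 95% intervals from edgeR's quasi-likelihood fit. Dsg2 is the filled point, with an adjusted p of 0.0351, and each interval lies inside the dashed lines at 2-fold.

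Ratios of partner genes within a library do not depend on how libraries are scaled. The 11 pairs examined were chosen after the values were seen and are given without a test, and since the pairs share genes and gene lengths differ, only their difference between libraries is read. Among all 45 pairs that the junction genes described here can form, the genotypes lay apart in 18. The share among pairs of all genes was not computed, so this count is not read as particular to these genes. Of single genes tested, 36.3% lay apart. The count ratio of Dsg2 to Dsp was 0.399, 0.369 and 0.358 in WT and 0.208, 0.209 and 0.238 in Ocln-KO, a mean 41.8% below WT. That of Dsc2 to Dsp was 0.271, 0.241 and 0.262 in WT and 0.179, 0.144 and 0.151 in Ocln-KO. In both ratios the Ocln-KO libraries were close together and far below WT, also in replicate 1, where Dsc2 itself was within the WT range. The ratio of Dsg2 to Dsc2 was 1.46 ± 0.0850 in WT and 1.40 ± 0.211 in Ocln-KO (SD, n = 3) and overlapped. The plaque genes were also lower relative to Dsp, with Jup at 0.449 ± 0.0382 and 0.322 ± 0.0506 and Pkp2 at 0.183 ± 0.0150 and 0.135 ± 0.0222 (SD, n = 3), and no overlap between genotypes. The ratios of Dsg2, Dsc2, Jup and Pkp2 to Dsp share the higher level of Dsp, so they are not separate results. The ratio of Ctnnb1 to Ctnnd1 was 1.62, 1.51 and 1.71 in WT and 1.31, 1.19 and 1.08 in Ocln-KO, again without overlap, and that of Ctnnb1 to Ctnna1 was 2.92 ± 0.287 and 2.27 ± 0.105 (SD, n = 3). That of Cdh1 to Ctnnd1 was 1.25 ± 0.106 in WT and 0.922 ± 0.222 in Ocln-KO (SD, n = 3), without overlap. The ratio of Cdh1 to Ctnnb1, the cadherin to the catenin that binds its tail, was 0.773 ± 0.0442 in WT and 0.765 ± 0.115 in Ocln-KO (SD, n = 3) and overlapped. That of Cdh3 to Cdh1 ranged in Ocln-KO from 0.178 in replicate 1 to 0.419 in replicate 3, a wider range than the 0.224 to 0.341 of WT.

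**Figure D3:**
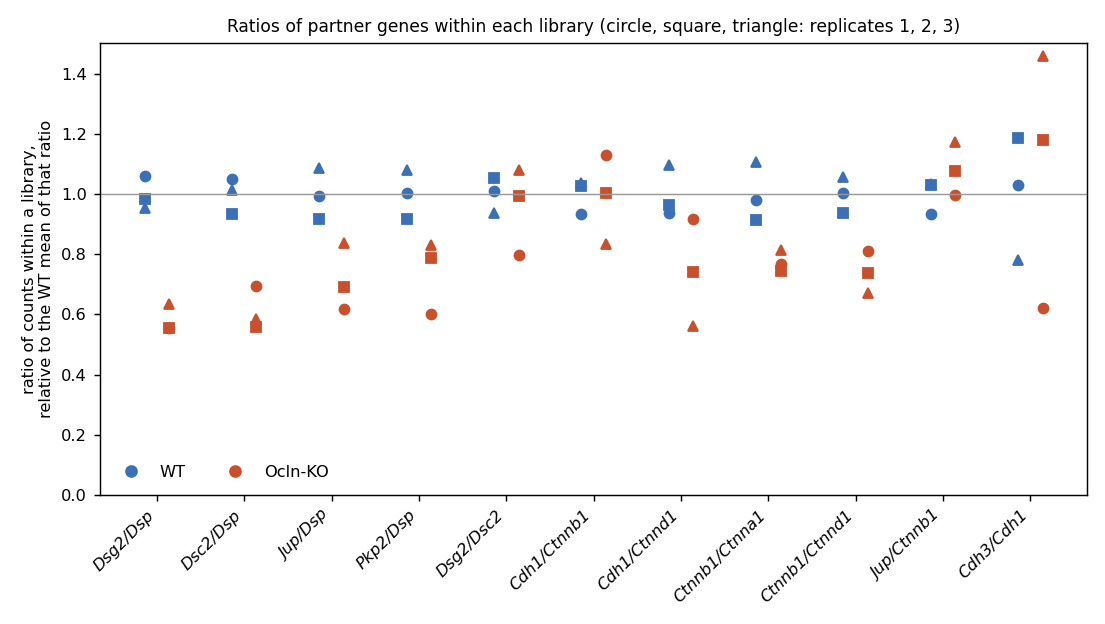
Ratio of the counts of partner genes within each library, divided by the WT mean of that ratio (vertical axis, from 0), for WT (blue) and Ocln-KO (red) replicates 1 (circle), 2 (square) and 3 (triangle). The ratios of Dsg2 and Dsc2 to Dsp are lower in the 3 Ocln-KO libraries than in any WT library, while those of Dsg2 to Dsc2 and Cdh1 to Ctnnb1 overlap.

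The genes were also set against the epithelium as a whole, as the mean log2 CPM of 12 general epithelial genes in the same library. Relative to these, 8 of the 10 junction genes were lower and 2 higher in Ocln-KO, with a median difference of -0.34 on the log2 scale. Dsg2 was 0.54, 0.51 and 0.38 above the list mean in WT and at -0.16, -0.12 and -0.06 from it in Ocln-KO, while Dsp was 0.19 further above it in Ocln-KO than in WT. The choice of reference matters: relative to Epcam alone, 5 genes were higher and 5 lower, with a median difference of 0.01. Dsp was higher than in WT without overlap under both references. Dsg2 was lower under both, but its libraries overlapped relative to Epcam. There it was at -1.43, -1.32 and -1.34 in WT and at -1.59, -1.82 and -1.42 in Ocln-KO. Among the 12 epithelial genes themselves, members that rose with an adjusted p under 0.05 included Krt19, Cldn4 and St14, while Krt7 fell, and the summed level of the 12 was 1907 to 2110 CPM for WT against 1719 to 2139 CPM for Ocln-KO.

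Of 8 other cadherins tested, 6 had a fold change above 1 and 2 below it. In this list 1 gene passed, against 8.95% of all genes tested. The 1 that passed was Cdh17, known as liver-intestine cadherin, which rose from 12.4, 14.2 and 12.5 CPM to 30.1, 18.4 and 34.9 CPM (log2 fold change 1.09, edgeR adjusted p = 0.0310). Its adjusted p was 0.124, 0.0788 and 0.117 without WT replicates 1, 2 and 3. The most abundant of them, Cdh16, had 168 ± 6.11 CPM in WT libraries against 182 ± 17.7 CPM with Ocln-KO (SD, n = 3), and Cdh2 (N-cadherin) was at most 1.48 CPM in any library. Of 17 tested catenins and partners of the adherens junction, 9 had a fold change above 1 and 8 below it. Here 1 gene passed, against the same 8.95%. Lmo7, which binds afadin, was the 1 that passed, at 59.9, 38.2 and 41.6 CPM in the WT libraries against 31.5, 26.7 and 28.7 CPM in those of Ocln-KO (log2 fold change -0.69, edgeR adjusted p = 0.0484). WT replicate 1 lay far above the other WT libraries, and leaving it out gave -0.46 on the log2 scale with an adjusted p of 0.120. The adjusted p of Lmo7 was above 0.05 with any library left out, at most 0.128, and was 0.0646 with total counts only and 0.0582 with limma-voom.

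Of 12 further desmosome genes, 7 passed the filter on low counts, 5 with a fold change above 1 and 2 below it, and the median log2 fold change was 0.38. Perp, a tetraspan membrane protein of the desmosome, rose from 56.5, 55.7 and 55.1 CPM to 73.8, 68.8 and 95.3 CPM (log2 fold change 0.51, edgeR adjusted p = 0.0483), and was above 0.05 with any library left out, at 0.151 at most, and 0.0513 with limma-voom. The plakins Ppl and Evpl, relatives of Dsp, did not pass, with Ppl at 117 ± 6.92 CPM for WT against 167 ± 36.9 CPM for Ocln-KO and Evpl at 6.46 to 7.46 CPM against 8.85 to 12.6 CPM (SD, n = 3; log2 fold changes 0.51 and 0.56, edgeR adjusted p = 0.0833 and 0.0908). For Ppl, Evpl, Perp and the plakophilin Pkp1, as for Dsp, each Ocln-KO library lay above each WT library. Of all genes tested, 36.3% lay apart in this way in either direction. Perp was the 1 of the 7 that passed, against 8.95% of all genes tested. Desmosomal cadherins of stratified epithelia were scarce. Dsg1c and Dsc1 passed the filter at no more than 2.38 and 2.34 CPM, with each Ocln-KO library below each WT library for both, and did not pass the test (log2 fold changes -1.13 and -0.89, edgeR adjusted p = 0.0958 and 0.185). Dsg1a, Dsg1b, Dsg3, Dsg4 and Dsc3 had at most 22 counts in any library.

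A list of 12 transcription and splicing factors of epithelial and mesenchymal cells, called regulators here, was examined next. Whether they set cadherin levels in this tissue was not tested. Zeb1 and Zeb2, zinc finger repressors of Cdh1 that are abundant in mesenchymal and immune cells, rose from 27.9, 24.9 and 24.3 CPM to 34.7, 35.1 and 39.04 CPM and from 40.7, 42.8 and 35.6 CPM to 53.4, 53.9 and 72.9 CPM (log2 fold changes 0.50 and 0.60, edgeR adjusted p = 0.0299 and 0.0441). The adjusted p of both was above 0.05 with each WT library left out in turn (highest 0.109 for Zeb1 and 0.148 for Zeb2, without WT replicate 3) and without Ocln-KO replicate 2 (0.0670 and 0.0703), and without Ocln-KO replicate 3 it was 0.0509 for Zeb1. No other of the 12 regulators passed, among them the epithelial factors Grhl2 (102 ± 5.23 and 122 ± 6.94 CPM, SD, n = 3; edgeR adjusted p = 0.0968) and Esrp1 (186 ± 13.9 and 159 ± 26.3 CPM, SD, n = 3; edgeR adjusted p = 0.293). Of 8 leukocyte genes tested, 1 passed, Ptprc, at 29.2 to 46.3 CPM in Ocln-KO against 10.8 to 15.1 CPM in WT. All 8 had a fold change above 1, and 7 had an unadjusted p under 0.05 by the edgeR test, against 29.1% of all genes tested. The libraries of the genotypes overlapped in 4 of the 8, Csf1r, Adgre1, Itgam and C1qa, and the summed level of the leukocyte list was 112 to 125 CPM for WT against 143 to 256 CPM for Ocln-KO. Their part in the rise of Zeb1 and Zeb2 was not tested.

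Beta-catenin is also the effector of Wnt signalling, in which it binds TCF and LEF factors. Of 15 genes of its turnover and its targets, 2 fell and none rose by the edgeR test, where 4 lower and 0 higher had an unadjusted p under 0.05. By comparison, 8.95% of all genes tested were called and 29.1% were under 0.05 before adjustment, counting both directions. Fold changes in this list were split, 7 being above 1 and 8 below. Nkd1, a feedback inhibitor of the pathway, had 56.1, 58.7 and 52.9 CPM in the WT libraries against 35.5, 33.6 and 34.9 CPM in those of Ocln-KO (log2 fold change -0.69, SE 0.08, edgeR adjusted p = 0.0107), and was above 0.05 without WT replicate 1 (0.0690). Lef1 had 8.15, 6.97 and 6.71 CPM in the WT libraries against 4.05, 4.21 and 4.53 CPM in those of Ocln-KO (log2 fold change -0.77, edgeR adjusted p = 0.0401). Its adjusted p was 0.153, 0.100 and 0.107 without WT replicates 1, 2 and 3, 0.0726 and 0.0970 without Ocln-KO replicates 1 and 2, and 0.0517 with total counts only. The target Axin2 had 91.7 ± 6.55 and 77.8 ± 5.80 CPM (SD, n = 3; edgeR adjusted p = 0.149), and the kinase gene Csnk1a1, the most abundant of the list, had 471 ± 23.2 and 471 ± 24.0 CPM (SD, n = 3). Apc, Notum and Rnf43 were instead higher in every Ocln-KO library than in any WT library. Their log2 fold changes were 0.12, 1.03 and 0.65, and none passed (edgeR adjusted p = 0.361, 0.198 and 0.195). Notum was scarce, at no more than 1.81 CPM. These were the 3 genes of the list that lay apart upward, against 4 downward, which were Nkd1, Lef1, Axin2 and Sp5. Sp5 was also scarce and had the largest fold change of the list in either direction. It fell from 1.47, 1.14 and 2.80 CPM to 0.717, 0.345 and 0.266 CPM. Its log2 fold change was -2.02 (SE 0.54, edgeR adjusted p = 0.0553), so that it did not pass over all genes tested.

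**Figure D4:**
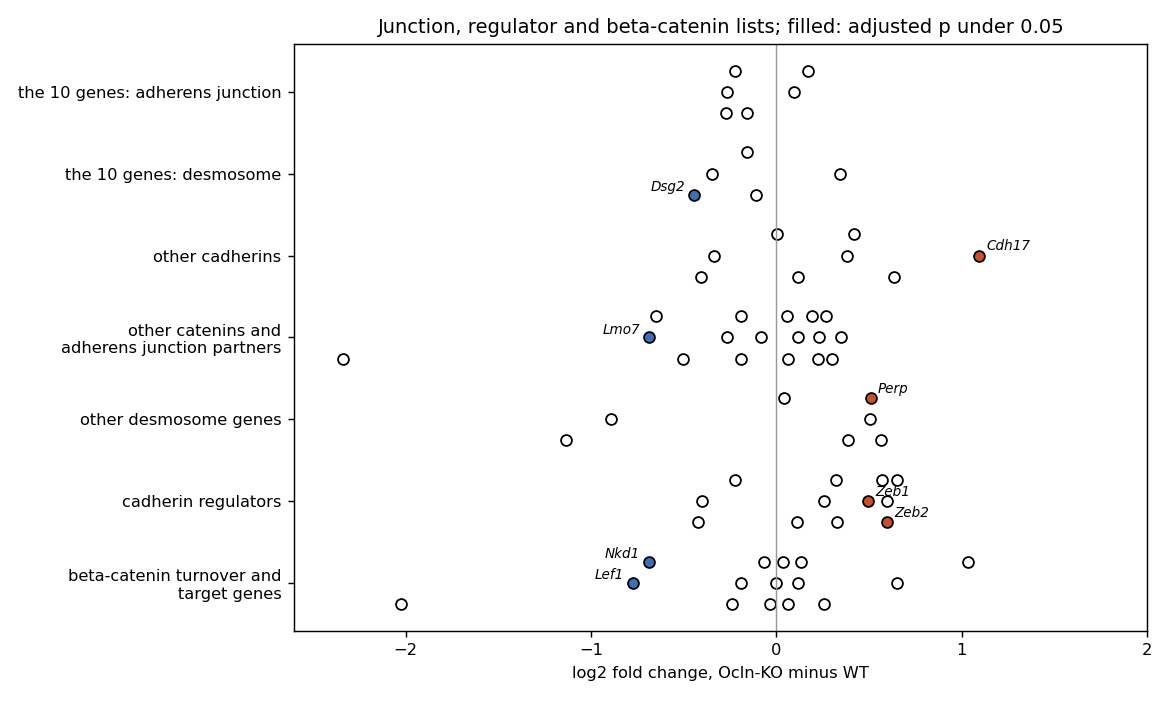
Log2 fold change (Ocln-KO minus WT, horizontal axis) of the tested genes of the junction, regulator and beta-catenin lists, 1 point a gene, with Jup in both junction rows. Filled points passed at 0.05 after adjustment (edgeR) and are named: Dsg2, Lmo7, Nkd1 and Lef1 were lower, and Cdh17, Perp, Zeb1 and Zeb2 higher.

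RefSeq promoter windows, 250 bases before to 50 bases after a transcript start on GRCm38.p6, were at hand for 4 of the 10 genes, Ctnnb1, Ctnnd1, Dsp and Jup. They were searched for the E-box CAGGTG, which Zeb and Snai factors bind, on both strands (CACCTG). Of 32851 windows of all genes, 20.2% hold it, as does 1 of the 6 windows of these genes. The windows of Dsp (chr13:38151044-38151343, plus strand), which had the largest positive fold change of the 10, and of Ctnnb1 (chr9:120933150-120933449, plus strand), the most abundant, are shown with the E-box in capitals. It begins 3 bases after the start site of Dsp, and the letters do not occur in the window of Ctnnb1. A match is a description of the sequence only.
Dsp: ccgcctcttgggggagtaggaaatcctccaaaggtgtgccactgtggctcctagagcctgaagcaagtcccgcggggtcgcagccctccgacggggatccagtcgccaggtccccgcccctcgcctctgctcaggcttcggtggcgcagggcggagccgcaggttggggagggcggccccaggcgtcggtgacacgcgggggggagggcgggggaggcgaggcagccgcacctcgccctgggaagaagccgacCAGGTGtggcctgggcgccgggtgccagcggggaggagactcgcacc
Ctnnb1: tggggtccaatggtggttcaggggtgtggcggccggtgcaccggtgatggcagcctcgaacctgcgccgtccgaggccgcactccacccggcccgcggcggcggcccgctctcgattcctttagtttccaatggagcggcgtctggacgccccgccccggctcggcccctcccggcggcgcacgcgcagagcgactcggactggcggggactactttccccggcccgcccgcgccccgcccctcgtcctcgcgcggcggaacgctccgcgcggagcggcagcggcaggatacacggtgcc

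Markers of other cell types also differed between genotypes. All 7 tested clear cell genes were lower in Ocln-KO, 5 of them with an adjusted p under 0.05, and their summed level was 202 to 285 CPM for WT against 64.3 to 109 CPM for Ocln-KO. Of 8 basal cell genes 1 rose, Krt14, with sums of 281 to 300 and 291 to 343 CPM. Of these, 6 had a fold change above 1 and 2 below it, and 2 of the higher had an unadjusted p under 0.05 by the edgeR test. Of the smooth muscle genes 2 of 8 rose, with sums of 1234 to 1486 and 1674 to 2258 CPM. Of the leukocyte genes 1 of 8 tested rose, with S100a8 at no more than 1 count in any library. In both lists all 8 tested genes had a fold change above 1, and 7 had an unadjusted p under 0.05 by the edgeR test. Of all genes tested, 8.95% were called and 29.1% had an unadjusted p under 0.05, in either direction. None of 8 fibroblast, 7 endothelial, 6 adipocyte and 8 sperm genes passed by the edgeR test, where 3 fibroblast genes (higher), 2 endothelial genes (1 higher and 1 lower), 3 adipocyte genes (lower) and 0 sperm genes had an unadjusted p under 0.05. Summed levels of endothelial genes were 109 to 123 and 109 to 142 CPM, of adipocyte genes 8.05 to 14.9 and 0.651 to 5.36 CPM, and of sperm genes 311 to 396 and 101 to 440 CPM, the lowest being Ocln-KO replicate 3. Of 5 tested blood genes 1 fell, with sums of 22.0 to 49.7 and 6.07 to 13.2 CPM. All 5 had a fold change below 1 and an unadjusted p under 0.05 by the edgeR test. The part of these differences in the levels of the junction genes was not tested.

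Among 10270 genes with a mean of at least 10 CPM, those whose pattern over the 6 libraries lay closest to Cdh1 were Actl6a, St3gal3, Rbm10, Ddx39 and BC021891, with root mean square differences of mean-centred log2 CPM between 0.028 and 0.051. Of the other junction genes the closest was Dsc2, at 0.094, followed by Ctnnb1 at 0.14 and Dsg2 at 0.18. The farthest was Cdh3, at 0.41, and Dsp and Ctnnd1 were at 0.33 and 0.32.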

How the data were processed

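Trizol-extracted total RNA of whole epididymis went through rRNA depletion and a strand-marking library kit before paired-end sequencing. Per the study's methods and the submitters' processing notes, the authors trimmed and quality-filtered the reads, used HISAT2 2.0.4 for alignment to GRCm38 and HTSeq for counts per gene. The deposited values are raw counts per gene, without normalization; counting mode and strand setting are not given in the sources used here. The methods speak both of 3 pairs of mice and of pooled RNA, so n counts libraries, and p-values measure the spread between these. Each column was matched to a sample by its title, with 0 columns unused.

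edgeR 4.0.16 in R 4.3.3 was fitted to the counts (filterByExpr by genotype, TMM factors, glmQLFit, glmQLFTest), which tested 19691 of 57127 listed genes, with Benjamini-Hochberg adjustment over all of them. A gene was called at an adjusted p under 0.05; the study's further threshold is a fold change over 2 or under 0.5. Intervals are 95% intervals of the quasi-likelihood fit, with the standard error as the log2 fold change over the square root of F. DESeq2 1.42.0 and limma 3.58.1 (voom) were alternatives, with other scaling, filters, a replicate block and each library left out. The fits were tested on simulated data. With 3 libraries against 3 an exact permutation test cannot go below p = 0.1, so none is given. Gene coordinates are RefSeq's (GRCm38.p6) and exon lengths the union of GENCODE M21 exons. The genes and lists were chosen with earlier results of these data known. Named are the 10 genes with every library's value, called genes and the most abundant of the other junction, regulator and beta-catenin lists, and the 5 genes most like Cdh1. Evpl, Pkp1, Dsg1c, Dsc1, Grhl2, Snai2, Axin2, Sp5, Notum, Rnf43, Apc, Cdh2, Ptprc, other single marker genes and the genes in the closing section fall outside that rule. These were picked with values in view, as were Ppl and Esrp1, the most abundant of their lists. Values of some single marker genes are not reported here.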

Additional observations from a re-analysis of the deposited data

How the results depend on the processing

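With DESeq2, 1528 genes were higher and 1637 lower in Ocln-KO, against 770 and 992 by edgeR, and 4 of the other junction genes were higher and 2 lower, against 2 and 1. With limma-voom 1 other junction gene was higher and 1 lower. Neither Perp nor Lmo7 passed there (adjusted p 0.0513 and 0.0582), so the lower gene was another, not named here. With no filter on low counts 2 were lower. With total counts only, 1175 genes were higher, 0 of the 10 junction genes and 0 of the other junction genes were lower (1 and 4 at an unadjusted p under 0.05), and 1 of the regulator and beta-catenin genes was lower, against 2. With a fold change over 2 or under 0.5 also required, 293 genes were higher and 335 lower, 0 of the 10 junction genes passed, 1 other junction gene was higher and 0 lower, and 0 regulator and beta-catenin genes passed in either direction. The median of the 10 genes relative to the epithelial list, -0.34, was 0.0083 relative to Epcam alone.

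With the replicate number as a block, 10 genes were higher and 31 lower, and 0 of the 10 junction genes, 0 other junction genes and 0 regulator and beta-catenin genes passed (adjusted p of Dsg2 0.0965), where 2188 genes higher and 2619 lower had an unadjusted p under 0.05. Libraries with the same number did not deviate together (correlations -0.05, -0.03 and -0.003), so the numbers are not read as pairs.

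With 1 library left out in turn, from 4 (without WT replicate 1) to 782 genes were higher and from 19 to 944 lower. Of the 10 junction genes 0 to 1 were higher (Dsp, without Ocln-KO replicate 3) and 0 to 2 lower (Dsg2 and Dsc2, without Ocln-KO replicate 1). Of the other junction genes 0 to 2 were higher and 0 to 1 lower, of the regulator and beta-catenin genes 0 to 2 and 0 to 2, and of the marker genes 0 to 17 and 0 to 9, against 10 and 7 with all libraries. Such fits test with fewer samples. Of the 10 junction genes, Cdh17, Lmo7, Perp, Zeb1, Zeb2, Nkd1, Lef1 and Ocln, none changed the sign of its fold change under the 14 alternatives; other named genes were not recomputed. With 3 libraries a genotype, spread between libraries and not counting depth limits these values.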

Other observations

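Among the other junction genes, the fold change farthest from 1 was that of Ctnna2, the alpha-catenin best known from neurons. It had 21.4, 22.3 and 29.5 CPM in the WT libraries against 7.08, 6.91 and 0.562 CPM in those of Ocln-KO, each Ocln-KO library below each WT library. The log2 fold change was -2.33 (SE 0.68, edgeR adjusted p = 0.0715), so that it did not pass over all genes tested. It was singled out after its values were seen.

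Cdh3 shared the place of its lowest libraries with Tcf7, a Wnt pathway transcription factor, and Lcn5, a secreted lipocalin of the epididymis. In each of the 3 genes the lowest WT library was replicate 3 and the lowest Ocln-KO library replicate 1, at 114 and 84.8 CPM for Cdh3, 107 and 62.8 CPM for Tcf7, and 3926 and 2479 CPM for Lcn5. Adam7, Defb20 and Spag11b of the epididymal list had the same lowest libraries, while Crisp1 and Lcn8 did not, so the pattern was not particular to the 3 genes. How many of all genes share it was not counted. Cdh3, Tcf7 and Lcn5 were set together after their values were seen, and no test was made.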
